A study of Mus musculus with 5 samples.

Results

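The annexin genes were examined in sorted pigment cells of mouse back skin. The set was the 10 genes Anxa1 to Anxa9 and Anxa11, taken by symbol after the Entrez identifiers of the count table had been matched to RefSeq, out of 24100 genes in all. The table held 12 mouse annexin genes. The 2 outside the set were Anxa10, with 0 counts in every library, and Anxa13, with 1 count in melanocyte replicate 2 and 0 elsewhere. A limit of 3 counts corresponded to between 0.0268 and 0.16 CPM (counts scaled to the TMM-normalized library size) across the libraries, so both lay below what the depth could show. The genes were chosen by family with their difference in counts between the 2 cell populations already known. The differences of the members are therefore given as a description, without p-values.

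The quiescent melanocyte stem cells (McSC) came from males of postnatal days 60 (replicate 1) and 62 (replicate 2), in 2nd telogen, the resting phase of the hair cycle, with 4 males pooled for each library. They carried Dct-eGFP, a green reporter named for the pigment lineage gene Dct, on a CD1/C57Bl6J mix. The melanocytes came from males of postnatal day 10 in full anagen, the growth phase, with 3, 2 and 4 males pooled for replicates 1 to 3. They carried Dct-EGFP together with Lef1-RFP on the same mixed background. Both gates took Dct-eGFP+ cells with medium to low integrin α6 that lacked CD31, CD45, CD140a, Sca1 and CD34, and the melanocyte gate also required Lef1-RFP and c-Kit. Age, hair cycle stage, reporter and gate differ together and cannot be told apart. These are bulk libraries, in which fewer cells of a type and less RNA per cell cannot be told apart either.

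Annexins are proteins that bind acidic phospholipids of membranes in the presence of calcium. They share a core of repeated domains and differ in the region before it, where partners such as the S100 proteins bind. They are known for roles in membrane repair, vesicle traffic, the control of inflammation and the surface activation of plasminogen, and several are abundant in skin epithelium. Lengths of the longest coding sequence differed little for most of the set, at 319 residues for Anxa4 and Anxa5, 323 for Anxa3, 327 for Anxa8, 339 for Anxa2, 345 for Anxa9 and 346 for Anxa1. Anxa7 (485 residues) and Anxa11 (503) have long leading regions, and Anxa6 (673) carries a duplicated core. The genes are spread over several chromosomes of GRCm38.p6. Anxa1 lies on chromosome 19 (20373434 to 20390671), Anxa2 on chromosome 9 (69453683 to 69491792), Anxa3 on chromosome 5 (96793385 to 96845968), Anxa4 on chromosome 6 (86736840 to 86793634), Anxa5 (36448923 to 36475887) and Anxa9 (95296093 to 95315180) on chromosome 3, Anxa6 on chromosome 11 (54978953 to 55033471), and Anxa7 (20455261 to 20480133), Anxa8 (34085979 to 34100571) and Anxa11 (25842127 to 25886804) on chromosome 14.

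Total counts ranged from 17512381 to 124530834 per library. The melanocyte label was checked against 8 pigment lineage genes (Dct, Tyr, Tyrp1, Pmel, Mlana, Sox10, Mitf and Kit). Their summed level was 19060 and 20290 CPM in the quiescent McSC libraries, 17590 and 19160 CPM in melanocyte replicates 2 and 3, and 2995 CPM in melanocyte replicate 1, which stands apart. Dct alone made 10440 and 11530 CPM of the quiescent McSC sums. Sox10, Mitf and Kit were called higher in quiescent McSC, and the other 5 were not called. Tyr, Tyrp1, Pmel and Mlana read higher in melanocyte replicates 2 and 3 than in quiescent McSC, and lower in replicate 1. Summed markers of fibroblasts and dermal papilla (8 genes, all 8 higher in melanocytes) were 11.7 to 40.7 CPM in quiescent McSC and 1894 to 5282 CPM in melanocytes, highest in replicate 1. Hair follicle and hair shaft markers (13 of 14 in the table, all 13 higher) were 37.2 to 80.2 CPM against 4053 to 6143 CPM, with Krt34 at 0 counts in both quiescent McSC libraries and Krt72 at 0 in replicate 1. Differentiated keratinocyte markers (6 of 7 higher in quiescent McSC) were 1244 and 2331 CPM there against 143.5 to 285 CPM, and basal keratinocyte markers (4 of 6 higher in melanocytes) 1921 and 2226 CPM against 3046 to 4334 CPM. Endothelial, immune and muscle marker lists each summed to 13.4 CPM or less in every quiescent McSC library, where Cdh5, Emcn, Cd3e and Des were at 0 in replicate 1, and to between 16.4 and 190.3 CPM in melanocyte libraries. All 5 endothelial and 4 muscle markers were higher in melanocytes. Of the 6 immune markers 3 were higher in melanocytes, Cd207 and Cd68 were higher in quiescent McSC, and 1 was not called. The share of these cell types in the annexin levels was not tested.

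Of the 10 genes, 8 had higher RNA levels in quiescent McSC and 2, Anxa3 and Anxa9, had higher mean levels in melanocytes. All 10 passed the filter on low counts, Anxa3 through its melanocyte libraries alone. In the fit over all 16953 tested genes, 8 members were called higher in quiescent McSC, 1 (Anxa3) was called higher in melanocytes and 1 (Anxa9) was not called, where 55.4% of all tested genes were called, 26.2% higher in quiescent McSC and 29.1% higher in melanocytes. Normalized levels of the groups did not overlap for any of the 10, as for 74.5% of all tested genes. The median log2 fold change, melanocyte minus quiescent McSC, was -1.38 over the 10 genes and 0.03 over all tested genes. Nothing is read from these counts, since the choice of the set used them. Among all tested genes 38.1% lay wholly higher in melanocytes and 36.4% wholly higher in quiescent McSC.

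The start regions of the genes are shown for members that were higher in quiescent McSC together and whose sequence holds a match to a searched motif. RefSeq windows of 250 bases before to 50 after a transcript start were found for 8 of the 10 genes, in 11 windows. Bases after the start and bases in annotated exons are left out for Anxa2, Anxa4 and Anxa7. The whole upstream part of the Anxa1 window lies in annotated exons, and the 30 bases around its TATAAA match are given from within them. Capitals mark TATAAA in Anxa1, the AP-1 motif TGANTCA in Anxa2, the NF-kB motif in Anxa4, searched with its bases 5 to 8 left free, and CTTTGAN (TCF/LEF) and an E-box, CATGTG read from the other strand as CACATG, in Anxa7. Sequences run 5′ to 3′ on the gene's strand, build GRCm38.p6.
Anxa1, chr19:20390686-20390715, strand -: cagttcatatccTATAAAatcaggagtcca
Anxa2, chr9:69453433-69453619, strand +: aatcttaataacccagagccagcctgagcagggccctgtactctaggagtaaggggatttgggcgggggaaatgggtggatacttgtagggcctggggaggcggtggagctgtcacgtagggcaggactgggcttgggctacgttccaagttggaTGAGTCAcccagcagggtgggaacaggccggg
Anxa4, chr6:86793585-86793834, strand -: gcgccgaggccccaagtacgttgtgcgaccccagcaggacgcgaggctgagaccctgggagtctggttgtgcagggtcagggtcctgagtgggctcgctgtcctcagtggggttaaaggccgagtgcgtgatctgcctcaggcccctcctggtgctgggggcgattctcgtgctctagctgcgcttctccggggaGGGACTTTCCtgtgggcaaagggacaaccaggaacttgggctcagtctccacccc
Anxa7, chr14:20480134-20480383, strand -: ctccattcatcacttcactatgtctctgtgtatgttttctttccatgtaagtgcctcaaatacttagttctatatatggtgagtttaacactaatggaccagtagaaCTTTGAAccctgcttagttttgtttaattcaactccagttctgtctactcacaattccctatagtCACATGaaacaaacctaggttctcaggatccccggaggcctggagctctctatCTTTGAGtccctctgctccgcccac

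No motif was common to the set. On either strand, TGANTCA stood in 1 of the 11 windows (Anxa2, starting 95 bases before the transcript start), against 7.81% of 32851 windows of all genes. The NF-kB motif stood in 3 of the 11 windows (1 each of Anxa1, Anxa4 and Anxa9), against 20.7% of all windows. CTTTGAN stood in 3 of the 11 windows (1 of Anxa4 and 2 of Anxa7), against 16% of all windows. The 2 Anxa7 windows overlap and share 1 of these matches. The TATAAA box stood in 2 of the 11 windows (Anxa1, starting 32 bases before the start, and Anxa2), against 13.6%. CATGTG and CACGTG each stood in 1 window, both of Anxa7, against 14.2% and 7.15%, and TGACGTCA (CRE) stood in none, against 1.79%. The TCF/LEF, AP-1 and CRE motifs share the letters TGA, but no matches overlapped in the annexin windows. The windows of Anxa5, Anxa8 and Anxa11 held none of these motifs. A match is a description of letters and not a bound site.

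Anxa1, a glucocorticoid-regulated inhibitor of inflammation and ligand of the formyl peptide receptors, had the largest difference toward quiescent McSC in the set. It read 1367 and 1310 CPM in quiescent McSC replicates 1 and 2, and 78.7, 84.6 and 67.1 CPM in melanocyte replicates 1 to 3. The stem cell libraries lay within 1.04-fold of each other and the melanocyte libraries within 1.26-fold. The means were 1338 ± 40 (SD, n = 2) and 76.8 ± 8.88 CPM (SD, n = 3), a 17.4-fold ratio, and the fitted log2 fold change was -4.12 ± 0.16 (SE). Summed differentiated keratinocyte markers, a cell type in which Anxa1 is also known, were 1.87-fold higher in quiescent McSC replicate 2 than in replicate 1, while Anxa1 stood 0.06 lower in replicate 2 on the log2 scale. Between the groups the same marker sum was 9.26-fold higher in quiescent McSC, the direction of Anxa1, and its part in the level of Anxa1 was not tested.

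Anxa2, which pairs with S100a10 at the plasma membrane and binds plasminogen and tissue plasminogen activator, read 485.7 and 497.1 CPM in quiescent McSC and 169.1, 197.5 and 236.5 CPM in melanocytes. Every stem cell library was above every melanocyte library, by a ratio of means of 2.44 (log2 fold change -1.29 ± 0.17). Melanocyte replicate 1 had the lowest value, and without that library the fold change was -1.18.

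Anxa8 and Anxa11 had the next largest differences. Anxa8, an annexin of stratified epithelium found on late endosomes, read 175.7 and 241.3 CPM in quiescent McSC and 35.3, 28.5 and 18.6 CPM in melanocytes (7.59-fold, log2 fold change -2.92 ± 0.28). It was the most variable member between libraries of a group, with a coefficient of variation (SD over mean) of 30.6% in melanocytes. In both groups Anxa8 was highest in the library with the highest differentiated keratinocyte markers, quiescent McSC replicate 2 (2331 against 1244 CPM) and melanocyte replicate 1 (285 against 150.1 and 143.5 CPM). Summed basal keratinocyte, immune, and muscle and pericyte markers were also highest in these libraries. The part of any of these cells in the level of Anxa8 was not tested.

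Anxa11, a binding partner of the calcium sensor Pdcd6 that tethers RNA granules to lysosomes, read 220.5 and 262.3 CPM in quiescent McSC and 39.4, 35.7 and 39.98 CPM in melanocytes. Its ratio of means was 6.29 (log2 fold change -2.65 ± 0.12), and the melanocyte libraries varied by 6.11%. Of the 50-base words in Anxa11 transcripts, 25.3% also occur in transcripts of other annotated genes, namely Gm2260, Gm2274 and the antisense gene Anxa11os. How the authors' counting assigned such reads is not given in the sources used here, so the level of Anxa11 is uncertain to that extent. In Anxa4 and Anxa9 the shared part was 1.41% and 3.46%, and in the other 7 members it was 0.

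Anxa4, Anxa5, Anxa6 and Anxa7 differed less, from 2.18-fold (Anxa6) to 3.44-fold (Anxa4). Anxa5, the phosphatidylserine binder used to stain dying cells, read 286.1 and 262.6 CPM against 93.9, 116.4 and 98.7 CPM (log2 fold change -1.41 ± 0.13). Anxa4, an annexin of secretory and lining epithelia, read 174 and 143.9 CPM against 41.9, 47.6 and 49.1 CPM (-1.78 ± 0.13). Anxa7, or synexin, first known for the aggregation of secretory granules, read 125.9 and 129.3 CPM against 44.8, 53.2 and 53.3 CPM (-1.34 ± 0.12). In each of these genes the lowest stem cell library was well above the highest melanocyte library.

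Anxa6, which acts on endosomes and membrane cholesterol, was the steadiest member. It read 165.7 and 169 CPM in quiescent McSC and 76.7, 77.6 and 76.5 CPM in melanocytes, a log2 fold change of -1.12 ± 0.09. Its coefficient of variation over the melanocyte libraries was 0.735%, whereas the median over the 9504 tested genes whose melanocyte level lay in the range of the annexins (8.47 to 201 CPM) was 11.2%. That 0.735% is the lowest of 10 values and rests on 3 libraries, with 1431 to 5290 Anxa6 counts. The median of the 10 annexins was 11.5%, so as a set they varied about as much as other genes of like level.

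Anxa3, known from neutrophil granules, had the opposite direction. It had 6 and 11 counts in quiescent McSC (0.0962 and 0.0982 CPM) and 487, 591 and 156 counts in melanocytes (12.01, 8.67 and 8.34 CPM). The ratio of means was 99.5 and the log2 fold change 6.61 ± 0.38, or 6.43 without melanocyte replicate 1. Its stem cell level rests on those few counts. Anxa3 was highest in melanocyte replicate 1, as were the fibroblast markers (5282 against 2025 and 1894 CPM) and the muscle and pericyte markers (190.3 against 93.9 and 75.3 CPM), whereas hair follicle markers were highest in replicate 2 (6143 CPM). Basal keratinocyte, differentiated keratinocyte and immune markers were also highest in replicate 1, and endothelial markers in replicate 2. The part of other cells in the Anxa3 level was not tested.

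Anxa9, a member in which the usual calcium-binding residues are altered, was low in both groups. It read 6.01 and 7.21 CPM in quiescent McSC and 7.42, 9.49 and 8.50 CPM in melanocytes. The lowest melanocyte library was only just above the highest stem cell library. The log2 fold change was 0.36 ± 0.23 with a 95% interval from -0.19 to 0.91, which includes 0. Exons of 6330562C20Rik on the same strand cover 4.76% of the exon bases of Anxa9. Exons of Mindy1, which had 22696 counts over the 5 libraries against 159 to 808 per library for Anxa9, cover 3.59% on the opposite strand, and with unstranded libraries reads there cannot be told apart.

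**Figure D1:**
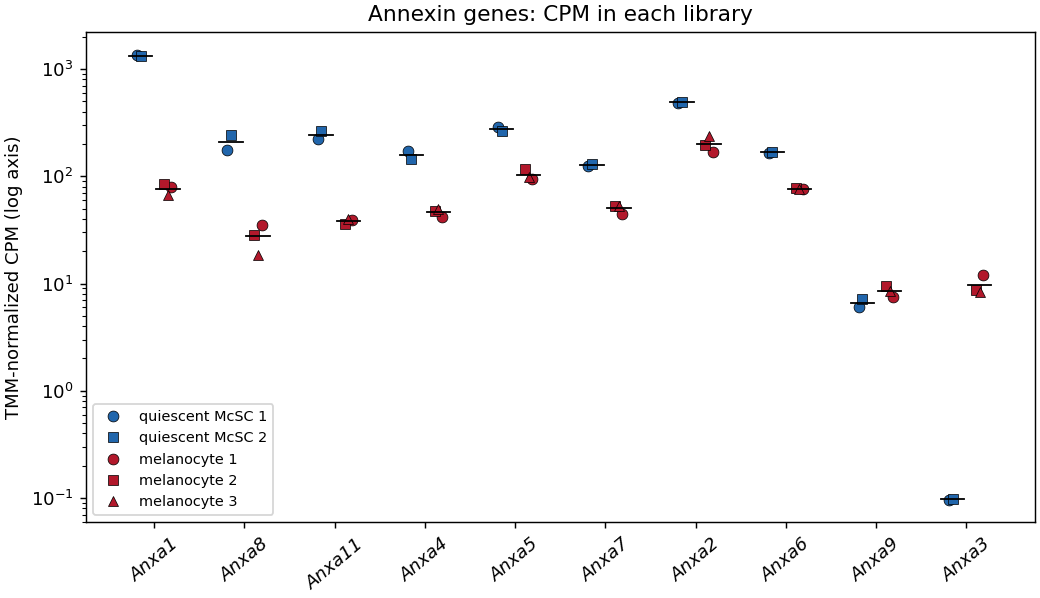
TMM-normalized CPM on a log axis of the 10 annexin genes in each library, ordered by log2 fold change, with a short line at each group mean (n = 2 quiescent McSC, n = 3 melanocyte). Blue stem cell points lie above red melanocyte points for 8 genes, the points of Anxa9 lie close together, and Anxa3 is at 0.0962 and 0.0982 CPM in stem cells against 8.34 to 12.01 CPM in melanocytes.

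Levels of different genes were compared per kilobase of merged exon (CPM per kb). In quiescent McSC the order was Anxa1 (707 ± 21.1), Anxa2 (340 ± 5.59), Anxa5 (158 ± 9.59), Anxa8 (111 ± 24.7), Anxa11 (88.6 ± 10.9), Anxa4 (75.5 ± 10.1), Anxa6 (67.3 ± 0.952), Anxa7 (42.1 ± 0.795), Anxa9 (3.35 ± 0.429) and Anxa3 (0.037 CPM per kb). Among neighbours in that order, the libraries of Anxa8 and Anxa11 and those of Anxa11 and Anxa4 overlapped. In melanocytes the order was Anxa2 (139 ± 23.4), Anxa5 (59.5 ± 6.87), Anxa1 (40.6 ± 4.69), Anxa6 (30.9 ± 0.227), Anxa4 (21.9 ± 1.79), Anxa7 (16.6 ± 1.61), Anxa8 (14.6 ± 4.47), Anxa11 (14.1 ± 0.859), Anxa9 (4.29 ± 0.522) and Anxa3 (3.68 ± 0.772 CPM per kb). Here the libraries of Anxa7 and Anxa8, of Anxa8 and Anxa11, and of Anxa9 and Anxa3 overlapped. Anxa1 was thus the first annexin by level in stem cells and the third in melanocytes, and Anxa2 moved from the second place to the first. With coding length in place of exon length these places of Anxa1, Anxa2 and Anxa5 were the same, whereas Anxa4 stood before Anxa11 and Anxa7 before Anxa6 in stem cells, and Anxa4 before Anxa6 and Anxa3 before Anxa9 in melanocytes.

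**Figure D2:**
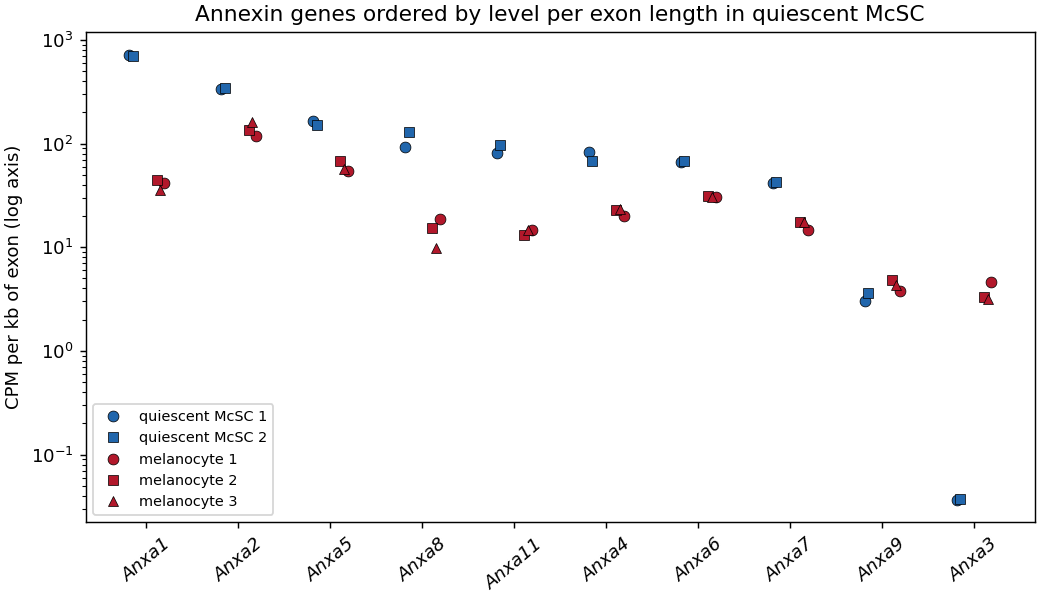
CPM per kb of merged exon on a log axis for each annexin gene and library, ordered by the quiescent McSC mean. Anxa1 leads in the stem cell libraries (692 to 722 CPM per kb) and Anxa2 in the melanocyte libraries (117 to 163 CPM per kb).

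Summed over the set, annexin RNA was 3006 and 3023 CPM in quiescent McSC and 599.1, 659.2 and 656.6 CPM in melanocytes, a 4.72-fold ratio of means. The melanocyte sums lay within 1.10-fold of each other, and the stem cell sums differed by 0.01 on the log2 scale. Per exon length, Anxa1 made up 45.4% and 43.4% of the summed annexin level in quiescent McSC and 13%, 12.5% and 9.86% in melanocytes, the groups not overlapping. Anxa2 made up 21.1% and 21.5% in quiescent McSC and 36.6%, 38.3% and 45.5% in melanocytes. Anxa5 made up 10.4% and 9.51% in quiescent McSC and between 15.9% and 18.9% in melanocytes, although its level was lower in melanocytes.

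**Figure D3:**
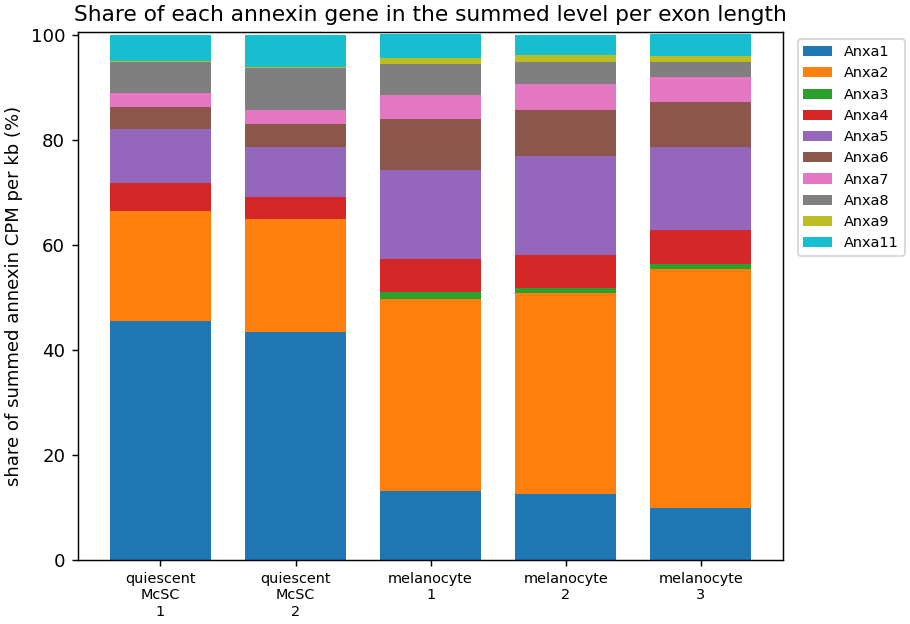
Share of each annexin gene, in percent, of the summed CPM per kb of the 10 genes in each library (stacked bars from 0 to 100). Anxa1 takes 43.4% to 45.4% in the stem cell libraries and 9.86% to 13% in the melanocyte libraries, where Anxa2 is the largest part.

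The spread between libraries of one group was not used to choose the set. Melanocyte replicate 1 differed from replicate 3 by a log2 ratio of -2.68 in summed pigment lineage markers and of 1.48 in fibroblast markers. The other marker sums lay between 0.12 (hair follicle and hair shaft) and 1.34 (muscle and pericyte), with immune markers at 0.35 and basal keratinocyte markers at 0.51. The log2 ratio of the same 2 libraries was -0.13 for the annexin sum, and for single members it lay between -0.48 (Anxa2) and 0.92 (Anxa8). Between the quiescent McSC libraries, fibroblast markers differed by -1.79 and differentiated keratinocyte markers by 0.91 (log2, replicate 2 over replicate 1). The other marker sums lay between -1.11 (hair follicle and hair shaft) and 0.63 (endothelial), with pigment lineage markers at 0.09. The annexin sum differed by 0.01, and single members lay between -0.27 (Anxa4) and 0.46 (Anxa8). The part of other cells in these ratios was not tested. Without melanocyte replicate 1, the log2 fold changes of the 8 members higher in quiescent McSC ran from -4.13 (Anxa1) to -1.11 (Anxa6).

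**Figure D4:**
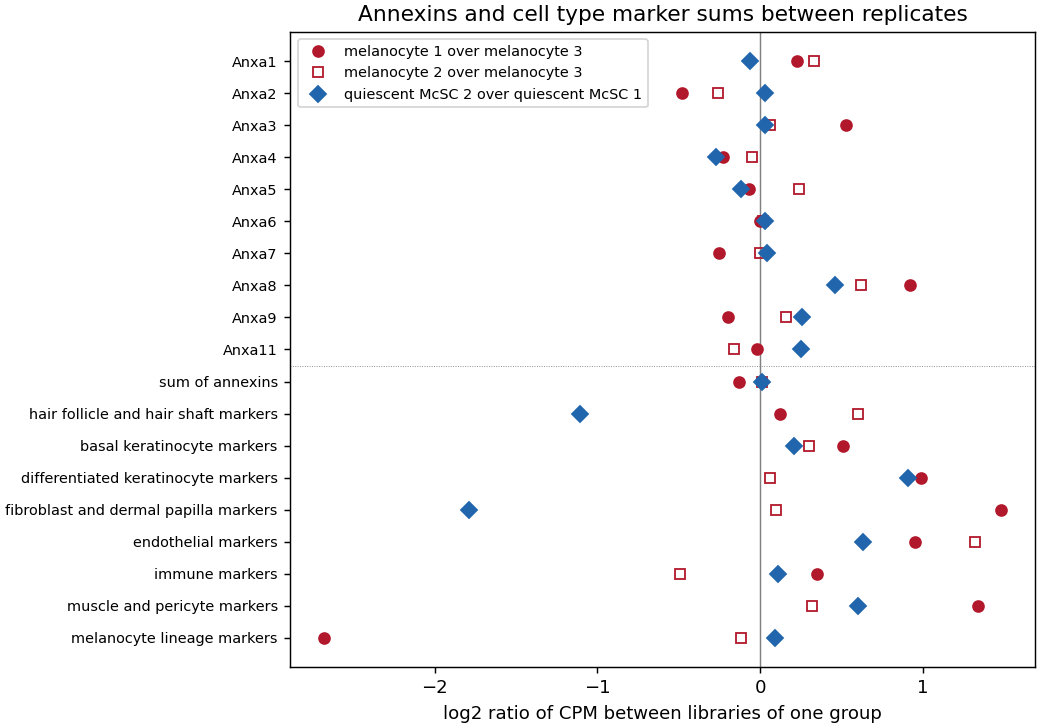
Log2 ratio of CPM between libraries of one group, for each annexin gene and for summed annexins and cell type markers below the dotted line. Single annexins lie between -0.48 and 0.92. For melanocyte replicate 1 over replicate 3, the pigment lineage sum lies at -2.68 and the hair follicle and hair shaft sum at 0.12.

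By a fixed rule, the 3 genes most like each annexin in pattern were those with the smallest root mean square difference of centred log2 CPM over the 5 libraries, among at least 10300 genes of at least 10 CPM. For Anxa1 they were Map2k3os, Pxdc1 and Maff (differences 0.096 to 0.122), for Anxa8 Pld1, Psapl1 and Zfp36 (0.105 to 0.142) and for Anxa11 Rela, Pou6f1 and Ust (0.083 to 0.087). For Anxa2 they were Zfand3, Zbtb24 and Rnf130 (0.037 to 0.046), and the closest annexin to Anxa2 was Anxa7, ranked 25. For Anxa3 they were Fanca, Espl1 and Fblim1 (0.113 to 0.127), and the nearest annexin of at least 10 CPM was Anxa6, at 2.55. For Anxa9 they were Slc29a3, Adck1 and Slc23a2 (0.026 to 0.036), and the nearest annexin of at least 10 CPM was Anxa6, ranked 7658. Anxa3 and Anxa9 themselves lay below 10 CPM in the mean over the libraries. They were therefore not candidate neighbours of other annexins. For Anxa1 the nearest annexin was Anxa8, ranked 228, so that many other genes lay closer to Anxa1 in pattern. For members that differ between the groups, this distance rests mainly on that difference, which the choice of the set used. Likeness here is therefore mainly a like fold change and no separate result.

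The known partners of annexins moved in both directions. Of 18 partner genes, 3 were called higher in melanocytes, 6 higher in quiescent McSC, 5 were not called and 4 were too low to test (9 of 14 tested called, against 55.4% of all genes). Their median log2 fold change was -0.72, against 0.03 over all tested genes. Calls of partner and repair genes under other settings stand against a share of all genes called of 55.2% with RLE factors, 56.2% with library size only, 45.8% without the filter, 63.9% with the stricter filter, 59.5% with DESeq2, 58.6% with limma-voom and 43.7% with a replicate block. It was 38.7% and 36.7% without quiescent McSC replicate 1 or 2, and 60.2%, 50.4% and 50.3% without melanocyte replicate 1, 2 or 3. Adjusted p-values are from edgeR's quasi-likelihood test over all genes.

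Among the S100 proteins, which bind the leading regions of annexins, S100a10, the partner of Anxa2, read 304.5 and 263.5 CPM in quiescent McSC and 173, 244.4 and 153.4 CPM in melanocytes (log2 fold change -0.58 ± 0.22, edgeR adjusted p = 0.0631, interval -1.11 to -0.05). It was called by DESeq2 (adjusted p = 0.0399), by limma-voom (0.0457) and without melanocyte replicate 2 (0.0103), with a range of 0.0103 to 0.259 over all 12 settings. S100a11, the partner of Anxa1, read 128.8 and 113.7 CPM against 179.9, 192.8 and 93.4 CPM and the groups overlapped (0.36 ± 0.31, interval -0.39 to 1.11). Without melanocyte replicate 3, its lowest library there, S100a11 was called higher in melanocytes (edgeR adjusted p = 0.0166), as also with a replicate block (0.0476), within a range of 0.0166 to 0.729. S100a6, which binds Anxa11 and other annexins, was higher in melanocytes at 259.2, 231.5 and 109.8 CPM against 68.7 and 88.0 CPM (1.35 ± 0.38, edgeR adjusted p = 0.0234). That call was lost without quiescent McSC replicate 1 (0.14) or 2 (0.0817) and without melanocyte replicate 2 (0.0781), the range being 0.00115 to 0.14. S100b was higher in quiescent McSC (18.2 and 30.5 CPM against 6.61, 14.3 and 6.20 CPM, -1.42 ± 0.43, edgeR adjusted p = 0.0316), and lost its call when melanocyte replicate 3 (0.0755) or quiescent McSC replicate 2 (0.199) was omitted (range 0.00503 to 0.199). S100a4 was not called (edgeR adjusted p = 0.0513), with a range of 0.0179 to 0.314 over the other settings, of which 5 called it.

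Ahnak, the giant scaffold protein bound by the complex of Anxa2 and S100a10, was higher in quiescent McSC at 2852 and 2676 CPM against 347.7, 306.5 and 273.5 CPM (log2 fold change -3.16 ± 0.18, edgeR adjusted p = 8.4e-05). Genes of plasminogen activation on the cell surface, where Anxa2 acts, divided. Plat, tissue plasminogen activator, was higher in quiescent McSC at 758.2 and 811.9 CPM against 40.05, 136.1 and 175.9 CPM (-2.74 ± 0.56, edgeR adjusted p = 0.00749), lowest in melanocyte replicate 1. The plasminogen receptor gene Plgrkt was also higher there (-1.58 ± 0.20, edgeR adjusted p = 0.00123). Plau, urokinase, was higher in melanocytes at 21.1, 22.0 and 20.7 CPM against 5.50 and 2.95 CPM (2.34 ± 0.31, edgeR adjusted p = 0.00136). Plasminogen itself (Plg) had at most 6 counts in any library.

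The formyl peptide receptor genes Fpr1, Fpr2 and Fpr3, whose products bind Anxa1, had at most 3 counts in any library and were not tested. Pla2g4a, the cytosolic phospholipase that Anxa1 inhibits, was higher in melanocytes (14.6, 17.4 and 16.6 CPM against 5.26 and 6.35 CPM, 1.48 ± 0.20, edgeR adjusted p = 0.00159). Sri, or sorcin, a binding partner of Anxa7, was higher in quiescent McSC (-0.86 ± 0.10, edgeR adjusted p = 0.00102), and so was Cav1, the coat protein of caveolae (-1.58 ± 0.31, edgeR adjusted p = 0.00617). Pdcd6, the calcium sensor that binds Anxa7 and Anxa11, was not called, at 92.0 and 85.1 CPM against 68.2, 97.6 and 79.5 CPM (-0.11 ± 0.16, interval -0.52 to 0.29).

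Genes of membrane repair and of phosphatidylserine, the lipid that Anxa5 binds, were called in either direction at about the share of all genes. Of 18 genes, 5 were called higher in melanocytes, 4 higher in quiescent McSC and 9 were not called, where 55.4% of all tested genes were called (29.1% toward melanocytes, 26.2% toward quiescent McSC). The median log2 fold change was 0.06, against 0.03 over all tested genes. As with the partners, these values are a description, since earlier results were known when the list was chosen. Among phosphatidylserine regulators, the scramblase gene Ano6 was higher in quiescent McSC (137.3 and 139.3 against 60.2, 67.8 and 61.9 CPM, -1.13 ± 0.10, edgeR adjusted p = 0.000343). Tmem30a, the subunit required by the flippases that return this lipid to the inner leaflet, was also higher there (-0.98 ± 0.10, edgeR adjusted p = 0.000646). The flippase gene Atp11a was not called (-0.90 ± 0.39). It read 104 CPM in melanocyte replicate 1 and 263 and 264 CPM in the other melanocyte libraries, against 360 and 422.9 CPM, and without replicate 1 it was called lower in melanocytes (-0.57, edgeR adjusted p = 0.0116, range 0.0116 to 0.303).

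The receptors of phosphatidylserine bridging ligands differed in direction. Axl was higher in melanocytes at 102.5, 77.4 and 58.0 CPM against 18.8 and 20.7 CPM (2.00 ± 0.25, edgeR adjusted p = 0.00122), and so was Mertk (1.43 ± 0.23, edgeR adjusted p = 0.00308). Tyro3, of the same receptor family, was higher in quiescent McSC at 48.0 and 55.1 CPM against 21.4, 18.7 and 16.3 CPM (-1.45 ± 0.16, edgeR adjusted p = 0.000662). The ligand gene Gas6 was not called (-0.03 ± 0.14, interval -0.37 to 0.30). Axl and Mertk were highest in melanocyte replicate 1, the library with the most fibroblast markers, whose part in these levels was not tested.

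In the repair group, the ferlin gene Dysf, whose product acts with annexins at muscle membrane lesions, was low, at 2.96, 2.46 and 0.481 CPM in melanocytes against 0.128 and 0.339 CPM (3.05 ± 0.88, edgeR adjusted p = 0.0271). Capns1, the regulatory calpain subunit, was higher in quiescent McSC (-0.65 ± 0.16, edgeR adjusted p = 0.0147), while the ESCRT genes Chmp4b (0.00 ± 0.16) and Pdcd6ip (0.24 ± 0.12) were not called. The number of repair genes called higher in melanocytes, 5 with all libraries, was 2 without quiescent McSC replicate 1 and 3 without replicate 2 or without melanocyte replicate 2. The calls of Dysf and Vps4b were lost without each of these libraries, that of Vps4b also without melanocyte replicate 3 (edgeR adjusted p = 0.0794), with RLE factors (0.0532), without the filter (0.0592) and with a replicate block (0.184), and those of Mfge8 and Capns1 without either quiescent McSC library.

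**Figure D5:**
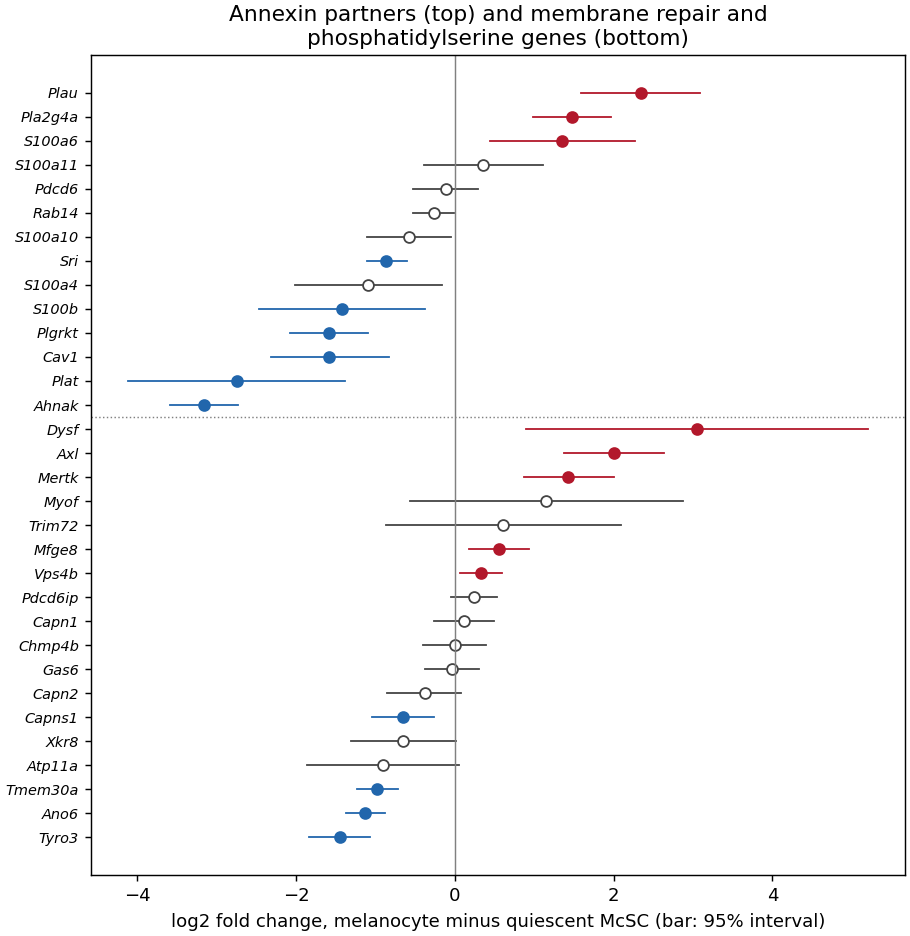
Log2 fold change, melanocyte minus quiescent McSC, of the 14 tested partner genes (above the dotted line) and the 18 membrane repair and phosphatidylserine genes, with 95% intervals. Red and blue filled points are called higher in melanocytes and in quiescent McSC, open points are not called, and Ahnak and Dysf are the lowest and highest.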

How the data were processed

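RNA of the 5 sorted populations was sequenced after poly-A selection with a kit that does not keep strand, per the series' design text. The authors deposited counts per gene and library. The submitters' processing notes list Salmon 0.8.2, STAR 2.5.2a and the mm10 build with no role for each; which program and annotation gave the counts was not given in the sources used here. Of 24100 Entrez identifiers, 24045 matched RefSeq (GRCm38.p6). Counts were filtered with filterByExpr, scaled with TMM and tested with edgeR 4.0.16 (R 4.3.3) in a quasi-likelihood fit of all 5 libraries by group, two-sided, with Benjamini-Hochberg adjustment over 16953 genes and a threshold of 0.05. CPM are TMM-normalized, and SE and 95% intervals follow from each fold change with its F statistic. Members and lists were chosen with earlier results of these data known, and 1 further gene first put in the repair list is not reported here, which leaves 18. Named genes were all annexins, members of the partner and repair lists, the cell type markers, and the 3 nearest genes by pattern (0.5 CPM added before the log). Lengths are merged exons of basic coding transcripts of GENCODE (GRCm38). The procedure was tested on simulated counts. Replicates are biological per the labels. Alternatives were RLE factors, library size only, 2 filters, DESeq2 1.42.0, limma-voom (limma 3.58.1), a replicate block and each library left out.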

Additional observations from a re-analysis of the deposited data

How the results depend on the processing

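As a description, since the members were chosen with these differences known, the log2 fold changes over all 13 settings ranged from -4.22 to -3.90 for Anxa1, -1.43 to -1.07 for Anxa2, 6.43 to 6.84 for Anxa3, -3.13 to -2.67 for Anxa8 and 0.23 to 0.58 for Anxa9. Scaling by library size alone shifted the median over all genes from 0.03 to 0.26 (log2) and Anxa2 to -1.07. The replicate numbers are not stated to pair the libraries, and deviations of same-numbered libraries had correlations of 0.045 and -0.071. Adding the replicate block, which gives melanocyte replicate 3 no weight, gave 4 partner and 5 repair genes called higher in melanocytes, 6 and 5 called higher in quiescent McSC, among 7412 of all genes. Under the block the calls of Myof, Atp11a and S100a11 were gained and that of Vps4b was lost, as it was with RLE factors and without the filter. Uncalled genes changed sign with library size only, namely Pdcd6 (0.10) and Gas6 (0.20). Leaving out 1 library gave ranges that cross 0 for Pdcd6 (-0.29 to 0.01), Capn1 (-0.02 to 0.27), Chmp4b (-0.09 to 0.13), Trim72 (-0.05 to 1.95) and Gas6 (-0.14 to 0.09), and Trim72 was called at its upper end. Leaving out 1 library gave between 2 and 5 repair genes higher in melanocytes; the cause was not tested beyond the smaller number of libraries. With 1 quiescent McSC library omitted, the remaining one is assumed to vary as the melanocyte libraries do.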
